A study of Mus musculus with 12 samples.

Results

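Mouse eggs that had received siRNA against both Dcp1a and Dcp2 were compared with eggs that had received siRNA against Dcp2 alone, which gives the effect of Dcp1a siRNA where Dcp2 was already depleted. The comparison rests on 3 arrays labelled Dcp1a+Dcp2 siRNA against 3 arrays labelled Dcp2 siRNA, 6 of the 12 arrays of the series, called double-knockdown and Dcp2-knockdown eggs below. It covers every probe set that exceeded 5 on the log2 scale (32 in linear units) on 3 or more of the 12 arrays, and 11593 of 45037 probe sets met this rule. The other arrays, 3 of eggs injected with Dcp1a siRNA and 3 of eggs injected with a control siRNA, give the effect of Dcp1a siRNA where Dcp2 was intact. All eggs came from CF1 mice, an outbred stock. Full-grown oocytes still holding their germinal vesicle were injected with commercial pools of siRNAs or with a mixture of both pools, were kept for 20 h in milrinone, which blocks the resumption of meiosis, and were then matured for 18 h to metaphase II. Each array carried amplified RNA of 30 pooled eggs, and the 3 replicates of a group were independent biological samples, so p-values measure the spread among such pools. The labels do not give the amount of siRNA injected into each group.

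Decapping removes the cap from the 5′ end of an mRNA and opens it to 5′-to-3′ exonucleases such as Xrn1. DCP2 is the catalytic subunit, and DCP1A is a cofactor that activates it and links it to enhancers of decapping such as EDC4, with the paralogue DCP1B as an alternative partner. The full-grown oocyte does not transcribe, so its mRNA at metaphase II is the maternal stock minus what was degraded during maturation. Dcp1a and Dcp2 mRNAs belong to the dormant maternal mRNAs that are translated only once maturation begins. Intensities are relative to the other transcripts on the same array, and they do not measure an egg's whole mRNA content. In pools, a change in all eggs and a larger change in some of them cannot be told apart.

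The targeted mRNAs went with the labels of both groups, for Dcp2 on a dim probe set only. The brightest of 3 Dcp1a probe sets had intensities of 518, 1233 and 622 units in double-knockdown eggs, against 7449, 10248 and 6397 units in Dcp2-knockdown eggs. The groups did not overlap, and the log2 difference was -3.42 ± 0.42 (fitted standard error, adjusted p = 0.000681). Dcp1a in double-knockdown eggs thus stood at 9.34% of its geometric mean in Dcp2-knockdown eggs and at 9.02% of that in control eggs, while Dcp1a siRNA alone left 11.8%. A dim Dcp1a probe set had 5.6, 5.6 and 5.6 units in double-knockdown eggs, against 24.8, 34.4 and 14.6 units in Dcp2-knockdown eggs, nearly all under 32, with a log2 difference of -2.05 ± 0.26 (adjusted p = 0.000943). With values under 32 set to 32 this difference was -0.03 (adjusted p = 0.968), so its size is set by values at the floor. The third Dcp1a probe set had 215, 238 and 102 units in double-knockdown eggs, against 1145, 47.2 and 2529 units in Dcp2-knockdown eggs. It scattered widely in Dcp2-knockdown eggs and was not called (-1.57 ± 1.66, adjusted p = 0.786). Dcp2 was at the floor of the data in both groups, at 5.0, 4.9 and 4.9 units in double-knockdown eggs, against 5.0, 4.9 and 5.0 units in Dcp2-knockdown eggs, with 32.4, 49.2 and 57.1 units in Dcp1a-knockdown eggs and 32.2, 30.4 and 81.8 units in control eggs. Without Dcp2 siRNA this probe set was itself dim, near 32 units on several arrays, so the size of the Dcp2 depletion is not known. A difference in remaining Dcp2 between double-knockdown and Dcp2-knockdown eggs could not be seen at the floor. A second Dcp2 probe set read 4.9 on all 12 arrays and reports nothing.

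**Figure D1:**
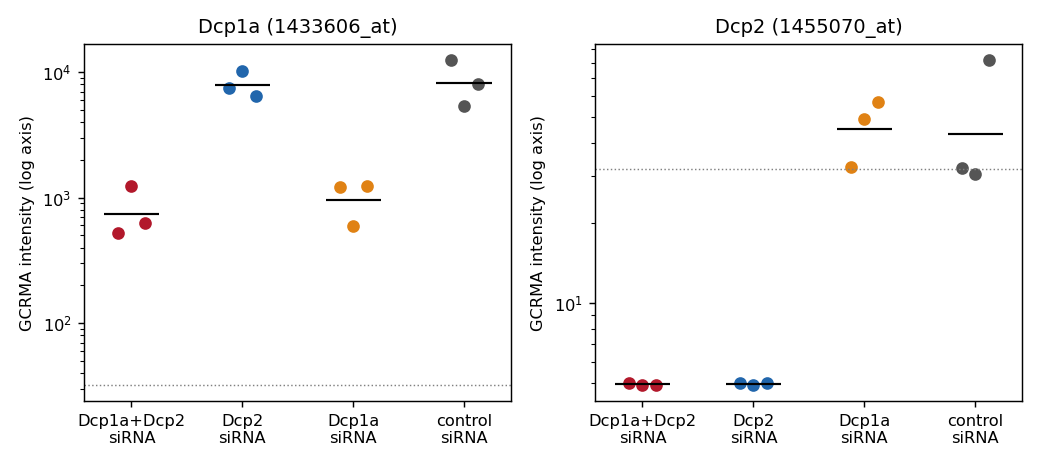
Deposited intensity (log axis) of the brightest Dcp1a and Dcp2 probe sets on each of the 12 arrays, with points for arrays, bars for geometric means and a dotted line at the floor of 32 used here. Dcp1a was between 518 and 1233 units on the double-knockdown arrays and between 6397 and 10248 units on the Dcp2-knockdown arrays, and Dcp2 was at or below 5 units on all 6 of these.

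Replicates of the double knockdown correlated at r between 0.958 and 0.989 across the tested probe sets and those of the Dcp2 knockdown at r between 0.938 and 0.973. Replicate 2 of the Dcp2 knockdown stood apart, since it correlated with the 3 Dcp1a-knockdown arrays at 0.978 to 0.985 and with its own group at 0.938 to 0.963. Among the 6 arrays the first principal component (44.5% of the variance) separated the groups, and the second (39.4%) ran within both groups. Double-knockdown arrays had 11089 to 11291 probe sets above 32 units, against 10625 to 10934 on Dcp2-knockdown arrays, and their ratio of the 3′ to the 5′ Gapdh control probe set was 153 to 168, against 170 to 249. Each of these differences gave p = 0.1 in an exact two-sided permutation test, the smallest value that 3 against 3 arrays allow, and the ratio of the 3′ to the middle Gapdh probe set gave p = 0.3. The part of amplification length in the results below was not tested. Oocyte markers were bright, with Gdf9 between 23585 and 32357 units in double-knockdown eggs and between 16856 and 29355 units in Dcp2-knockdown eggs. Bmp15 also overlapped between the groups, but Zp3 and Mos did not. Zp3 lay between 7494.8 and 9075.5 units in double-knockdown eggs, against 1726.6 to 3445.3 units in Dcp2-knockdown eggs. Mos lay between 17683.3 and 19774 units in double-knockdown eggs, against 11808.2 to 15761.8 units in Dcp2-knockdown eggs. Of 29 cumulus and granulosa markers 3 exceeded 32 units on any of the 6 arrays, their probe sets summed to 3550 to 4424 units with both siRNAs and 3574 to 4791 units with Dcp2 siRNA alone, mostly Nr5a2, and the defining markers Amh and Fshr were at 4.9 units on every array. The 22 markers of other ovarian, stromal and blood cells, of which 2 exceeded 32 units, summed to 260 to 263 units and 272 to 284 units, with Ptprc at 4.9.

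With Dcp1a siRNA added to Dcp2 siRNA, far more mRNAs were higher than lower. Of 11593 probe sets 739 passed an adjusted p of 0.05 (6.37%), 710 of them higher (6.12%) and 29 lower (0.25%) in double-knockdown eggs. These stood for 535 genes with a higher and 25 genes with a lower probe set, with 0 genes in both. At an unadjusted p under 0.05 the counts were 1458 higher and 370 lower. In 738 of the 739 the 3 double-knockdown arrays did not overlap the 3 Dcp2-knockdown arrays, which held for 21.2% of all probe sets tested. The median rise was 3.38-fold and the median fall 1.94-fold, or 2.71-fold and 1.91-fold after values under 32 were set to 32. Rises exceeded 2-fold in 635 of 710 probe sets and 4-fold in 297.

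The probe sets that rose were dimmer than most. Intensity depends on the probe set and on the amount of mRNA, which were not separated, so it is not a measure of how abundant the mRNAs were. In 229 of the 710 the Dcp2-knockdown mean or median lay at or under 32 units, and in 185 all 3 of its arrays did, so that the size of these rises is known only as a lower bound. Of the 710, 192 (27%) exceeded 32 units on fewer than 3 arrays outside the double knockdown, against 361 of all 11593 probe sets (3.11%), and 102 did so on no other array. The 361 were tested only because the double-knockdown arrays were high, so the filter favoured rises among them, and 192 of the 361 were called higher. The other 518 rises did not depend on this. For the 710 the median of the mean log2 intensities over 12 arrays was 6.46, against 8.09 for the falls and 7.96 for all probe sets tested. The genes that rose were also short: their median genomic span was 16.3 kb, against 45.7 kb for the genes that fell and 31.3 kb for all genes tested. Probe sets that can match several transcripts (_s_at or _x_at) made up 27.9% of the rises and 17.3% of all tested, and without them 490 rises and 22 falls were called. The median log2 change over all probe sets was 0.06 as deposited, and centring each array on its median moved it to -0.15, so every change is relative to a zero that the scaling can move by that amount.

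**Figure D2:**
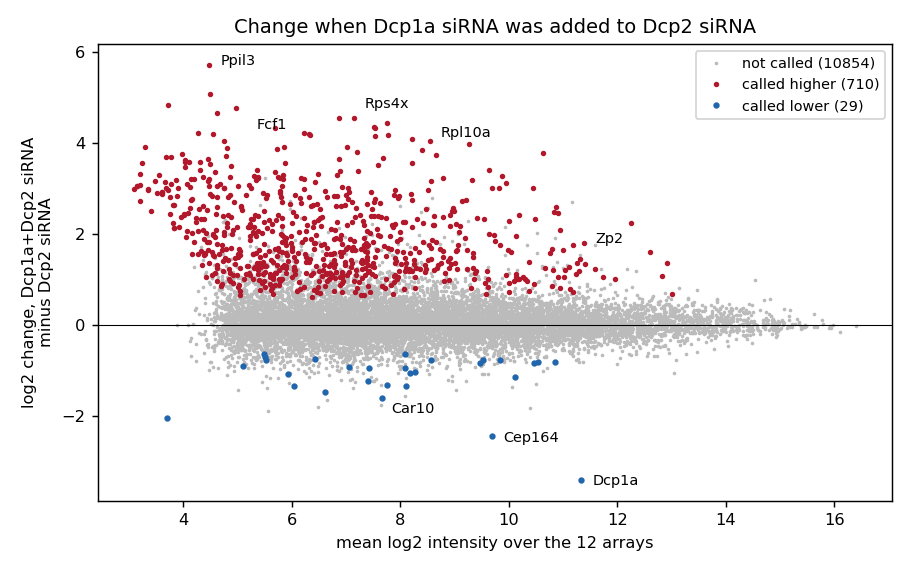
Log2 change (double-knockdown minus Dcp2-knockdown eggs) of each of the 11593 tested probe sets against its mean log2 intensity over the 12 arrays. The 710 called rises (red) lie mostly at low and middle intensity and reach above 5, while the 29 called falls (blue) are led by Dcp1a at -3.42 and Cep164 at -2.45.

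The number of calls depended on the double-knockdown arrays: it was 471 without replicate 1 and 477 without replicate 2, and between 556 and 863 with any other single array left out. Without replicate 2 of the Dcp2 knockdown, the array that stood apart, it was 587, with 568 higher and 19 lower. Giving each array a weight estimated from its own scatter raised the count to 2564, with 1902 higher and 662 lower, so that 74.2% of calls were rises, against 96.1% with equal weights. Replicate 1 of the double knockdown had a weight of 7.98, against 0.225 to 2.96 for the other arrays, so this count rests largely on that array.

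Across the arrays, the 710 rises were high in the double knockdown and level elsewhere, with control replicate 3 as an exception. Their median intensity was 214, 235 and 216 units in double-knockdown eggs, against 64.0, 56.4 and 61.8 units in Dcp2-knockdown eggs. It was 64.2, 59.8 and 61.6 units in Dcp1a-knockdown eggs, and 62.8, 53.8 and 109 units in control eggs. Control replicate 3 was thus high for these mRNAs: it was the highest of the 3 control arrays in 530 of the 710 (74.6%), against 36.8% of all probe sets tested. The double-knockdown arrays all lay above all control arrays, replicate 3 included, in 628 of the 710 (88.5%), against 12.9% of all probe sets. These arrays also chose the 710, so this share is a description. The Dcp2-knockdown arrays lay below all control arrays in 43 (6.06%), against 5.21% of all probe sets. Without control replicate 3 the rises numbered 823, with 701 of the 710 among them. For the 29 falls the medians were 170, 161 and 130 units with both siRNAs, against 268, 316 and 449 units with Dcp2 siRNA alone, and in 24 of them (82.8%) the double-knockdown arrays lay below all control arrays, against 11.8% of all probe sets. The double-knockdown arrays also chose the 29, so this share is a description.

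The 15 largest rises, ranked after values under 32 were set to 32, held 5 cytosolic ribosomal proteins, 3 mitochondrial or vacuolar energy genes and 7 others, of which Fcf1 serves ribosome assembly, Eif4h translation and Supt20 transcription. Rps4x, an X-linked protein of the small ribosomal subunit, headed the ranking. It had 1048, 941 and 1124 units in double-knockdown eggs, against 46.2, 45.8 and 41.3 units in Dcp2-knockdown eggs, a log2 difference of 4.54 ± 0.69 (adjusted p = 0.0024). It had 66.7, 70.8 and 72.1 units in Dcp1a-knockdown eggs and 46.0, 76.7 and 585 units in control eggs, so 1 control array was high as well. Rpl10a, a protein of the large subunit, had 3436, 3778 and 2250.3 units in double-knockdown eggs, against 229.7, 126 and 219 units in Dcp2-knockdown eggs (4.06 ± 0.58, adjusted p = 0.00167). Rpl19, also of the large subunit, had 1154, 1302 and 758 units in double-knockdown eggs, against 116, 59.4 and 59.8 units in Dcp2-knockdown eggs (3.81 ± 0.50, adjusted p = 0.00101). In these 3 genes the lowest double-knockdown array stood far above the highest Dcp2-knockdown array. Rpl7a had 1274, 1333 and 1554 units in double-knockdown eggs, against 158, 132 and 77.3 units in Dcp2-knockdown eggs (3.56 ± 0.64, adjusted p = 0.00592). Rpl7, read by a probe set that can match copies of the gene, had 306, 258 and 488 units in double-knockdown eggs, against 31.6, 20.5 and 17.4 units in Dcp2-knockdown eggs. With the Dcp2-knockdown arrays under 32 the rise of Rpl7 was at least 10.6-fold (adjusted p = 0.00863). Control replicate 3 had 917 units for Rpl10a, 272 for Rpl19, 762 for Rpl7a and 270 for Rpl7, each above the other control arrays. For Rpl7 this also exceeded replicate 2 of the double knockdown. Rpl7 passed the filter only through the double-knockdown arrays, so the filter favoured its rise.

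Fcf1, which in yeast is needed to process the RNA of the small ribosomal subunit, had 548, 851 and 512 units in double-knockdown eggs, against 41.6, 24.6 and 35.9 units in Dcp2-knockdown eggs. Its log2 difference was 4.22 ± 0.28 (adjusted p = 1.08e-05), and it was low on all other arrays, with 37.7, 35.9 and 36.1 units in Dcp1a-knockdown eggs and 35.9, 33.0 and 57.8 units in control eggs. Mdh2, the malate dehydrogenase of mitochondria, had 1596, 1744 and 1839 units in double-knockdown eggs, against 153, 96.1 and 58.1 units in Dcp2-knockdown eggs (4.18 ± 0.74, adjusted p = 0.00582). Ndufs7, an iron-sulfur subunit of respiratory complex I, had 855, 1406 and 558 units in double-knockdown eggs, against 117, 61.5 and 81.9 units in Dcp2-knockdown eggs (3.38 ± 0.58, adjusted p = 0.00469). Both groups were well apart in these genes. Atp6v1d, a subunit of the proton pump of acidic organelles, had 492, 560.4 and 467 units in double-knockdown eggs, against 42.4, 51.6 and 10 units in Dcp2-knockdown eggs, a rise of at least 12.3-fold (adjusted p = 0.00496). Ppil3, a prolyl isomerase of the cyclophilin family, was near the floor in Dcp2-knockdown eggs and rose at least 12-fold (adjusted p = 0.000274), with 405, 406 and 344 units in double-knockdown eggs, against 7.5, 5.7 and 8.9 units in Dcp2-knockdown eggs. Lrrfip2 had 2634, 2201 and 2545 units in double-knockdown eggs, against 187, 184 and 177 units in Dcp2-knockdown eggs (3.75 ± 0.61, adjusted p = 0.00356), and its Dcp2-knockdown arrays were close to each other. Control replicate 3 had 795 units for Mdh2, 318 for Ndufs7, 273 for Atp6v1d and 1327 for Lrrfip2, each above the other control arrays. Ppil3 passed the filter only through the double-knockdown arrays and control replicate 3, so the filter favoured its rise.

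The calls of the other 4 of the 15 depended on single arrays. Elp2, a subunit of the Elongator complex that modifies tRNA, had 4080.5, 4834 and 4029.9 units in double-knockdown eggs, against 373, 316 and 170.4 units in Dcp2-knockdown eggs (3.98 ± 0.87, adjusted p = 0.0189), and its adjusted p reached 0.0753 with 1 array left out. Eif4h, which stimulates the helicase of the initiation complex, had 935, 638 and 1531 units in double-knockdown eggs, against 134, 54.8 and 20.2 units in Dcp2-knockdown eggs (4.20 ± 0.98, adjusted p = 0.0264, 0.104 at most with 1 array left out). Its 3 tested probe sets all rose. Supt20, a subunit of the SAGA coactivator, had 1011, 1051 and 911 units in double-knockdown eggs, against 145, 27.3 and 71.5 units in Dcp2-knockdown eggs (3.91 ± 0.80, adjusted p = 0.0131, 0.052 at most). Usp3, a deubiquitinase of histones, had 528, 706 and 575 units in double-knockdown eggs, against 68.3, 30.2 and 89.8 units in Dcp2-knockdown eggs (3.39 ± 0.80, adjusted p = 0.0268, 0.0987 at most), and 2 of its 3 tested probe sets were called. In these 4 genes the groups did not overlap on any array, and each lost its call without replicate 1 and without replicate 2 of the double knockdown. Control replicate 3 had 3174 units for Elp2, 250 for Eif4h and 459 for Supt20, each above the other control arrays.

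**Figure D3:**
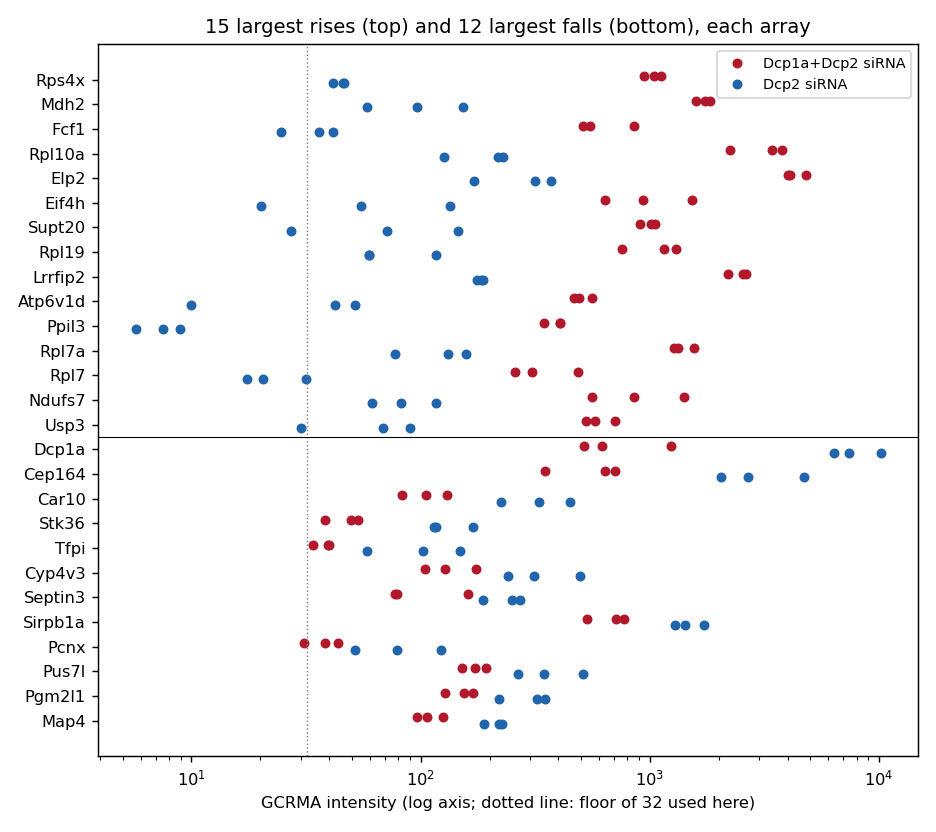
Deposited intensity (log axis) on each double-knockdown array (red) and each Dcp2-knockdown array (blue) for the 15 largest rises (top) and the 12 largest falls (bottom), with a dotted line at 32 units. The red and blue points do not overlap in any of these 27 genes, which is part of the rule that chose them.

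The 12 largest falls were smaller and held few genes of one function. After Dcp1a itself came Cep164, a protein of the centriole's distal appendages, with 642, 708 and 348 units in double-knockdown eggs, against 2684, 2057 and 4708 units in Dcp2-knockdown eggs (-2.45 ± 0.61, adjusted p = 0.0341). Cep164 had 356, 368 and 355 units in Dcp1a-knockdown eggs and 1581, 1413 and 253 units in control eggs, so that control replicate 3 was as low as the double knockdown, and its other tested probe set was not called. Car10, a carbonic anhydrase-related protein without the enzyme's activity, had 106, 82.9 and 129.8 units in double-knockdown eggs, against 224, 328 and 449 units in Dcp2-knockdown eggs (-1.62 ± 0.33, adjusted p = 0.0129). Car10 also had 128, 157 and 96.4 units in Dcp1a-knockdown eggs and 394, 606 and 293 units in control eggs, a difference that was not called. Stk36, a kinase needed for motile cilia in the mouse, had 49.5, 38.4 and 53.4 units in double-knockdown eggs, against 114, 169 and 117 units in Dcp2-knockdown eggs (-1.49 ± 0.20, adjusted p = 0.00117). Stk36 stayed near its Dcp2-knockdown level elsewhere, with 109, 116 and 116 units in Dcp1a-knockdown eggs and 145, 116 and 130.2 units in control eggs. Sirpb1a, a signal-regulatory protein of immune cells, had 711, 773 and 532 units in double-knockdown eggs, against 1427, 1289 and 1721 units in Dcp2-knockdown eggs (-1.15 ± 0.22, adjusted p = 0.0102), and Map4, a microtubule-associated protein, had 107, 96.3 and 125 units in double-knockdown eggs, against 221, 227 and 189 units in Dcp2-knockdown eggs (-0.96 ± 0.17, adjusted p = 0.00611) on the 1 of its 3 tested probe sets that was called.

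The other 6 falls lay between -1.35 and -0.96 on the log2 scale: Tfpi, an inhibitor of blood coagulation (-1.35), the cytochrome P450 Cyp4v3 (-1.34), the septin Septin3 (-1.24), the pecanex protein Pcnx (-1.09), Pus7l, a relative of pseudouridine synthases (-1.07), and Pgm2l1, which makes glucose 1,6-bisphosphate (-0.96). Their adjusted p-values ran between 0.0204 and 0.0486. Only 1 of 4 tested probe sets was called for Pcnx, 1 of 3 for Pgm2l1 and 1 of 2 for Septin3. Each of these 6, like Cep164 and Car10, lost its call with at least 1 array left out, with an adjusted p of 0.185 at most (Pcnx). Dcp1a, Stk36, Sirpb1a and Map4 kept theirs with every single array left out.

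The cytosolic ribosome had the highest share of called rises among the 26 gene lists examined. Of 39 ribosomal protein genes tested, each by its brightest probe set, 19 were called higher and 0 lower (48.7% higher), against 412 of 6998 genes higher (5.89%) and 19 lower (0.272%) by the same measure. Their median log2 change was 1.13, against 0.06 for all genes, and 36 of 39 changes were above 0. Rpl6 of the large subunit had 459, 669.6 and 695 units in double-knockdown eggs, against 75.7, 70.0 and 90.3 units in Dcp2-knockdown eggs (2.93 ± 0.20, adjusted p = 1.11e-05). Rps20 of the small subunit, read by a probe set that can match copies of the gene, had 2937, 3010.0 and 2704 units in double-knockdown eggs, against 622, 656 and 498 units in Dcp2-knockdown eggs (2.29 ± 0.28, adjusted p = 0.000673). Rps26, also of the small subunit, had 304, 342 and 384 units in double-knockdown eggs, against 75.4, 63.1 and 75.4 units in Dcp2-knockdown eggs (2.27 ± 0.31, adjusted p = 0.00119). Both subunits were thus represented, and the 3 genes together with Rpl19 showed no overlap between the groups. The 19 called changes ran between 0.97 and 4.54 on the log2 scale, and the 20 others between -0.34 and 1.24. With 1 array left out, between 15 and 22 were called, with medians between 1.09 and 1.33. Of the 19, 3 had passed the filter only through the double-knockdown arrays; leaving out all such genes, 16 of 35 were called (45.7%), against 303 of 6797 over all genes (4.46%). Without the filter on dim probe sets 10 were called. This family has many processed pseudogenes. Of the 19 calls 7 came from probe sets that can match several transcripts, and 14 were called when such probe sets were left out.

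The mean level of the 39 genes on each array, on the log2 scale relative to their mean over the 12 arrays and with values under 32 set to 32, was 1.08, 1.12 and 0.89 in double-knockdown eggs, against -0.17, -0.47 and -0.48 in Dcp2-knockdown eggs. The same level for complex I was 0.84, 0.90 and 0.69, against -0.15, -0.35 and -0.55. All double-knockdown arrays lay above all Dcp2-knockdown arrays in both lists. The same arrays gave the calls in these lists, and genes that passed the filter only through the double-knockdown arrays are included, so these levels are a description.

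In vertebrates, mRNAs of ribosomal proteins start with a run of pyrimidines behind the cap, the motif through which their translation is held back or released, so the sequence around the annotated start is shown for 4 called genes with a pyrimidine run near that start and 2 without. The sequences come from RefSeq on GRCm38.p6 and run from 45 bases before the start to 15 bases from it on, 60 bases in all. Capitals mark the longest run of a C followed by at least 6 pyrimidines (C or T) that was found on the coding strand between 10 bases before the start and the 15th base from it on, and no other motif was searched. The windows lie at chr2:26910762-26910821 (plus strand) for Rpl7a, chr17:28328426-28328485 (plus) for Rpl10a, chr11:98026879-98026938 (plus) for Rpl19, chr10:128626492-128626551 (minus) for Rps26, chr5:121204456-121204515 (plus) for Rpl6 and chrX:102189377-102189436 (minus) for Rps4x.
Rpl7a: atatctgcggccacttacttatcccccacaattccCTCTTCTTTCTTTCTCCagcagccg
Rpl10a: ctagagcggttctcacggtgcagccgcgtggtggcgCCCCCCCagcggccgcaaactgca
Rpl19: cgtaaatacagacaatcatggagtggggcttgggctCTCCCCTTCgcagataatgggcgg
Rps26: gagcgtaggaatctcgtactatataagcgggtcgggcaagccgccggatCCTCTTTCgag
Rpl6: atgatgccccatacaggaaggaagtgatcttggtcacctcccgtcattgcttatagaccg
Rps4x: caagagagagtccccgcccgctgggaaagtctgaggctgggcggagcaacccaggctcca
Counting the start as base 1 and the base before it as -1, the run went from -10 to 7 in Rpl7a (17 bases), from -9 to -3 in Rpl10a (7 bases), from -9 to -1 in Rpl19 (9 bases) and from 5 to 12 in Rps26 (8 bases). The runs of Rpl10a and Rpl19 thus lay before the annotated start, outside the annotated mRNA, and only that of Rpl7a spanned the start. These lengths end at the search window or begin at a C: the unbroken stretch of pyrimidines had 21 bases in Rpl7a, 7 in Rpl10a, 11 in Rpl19 and 9 in Rps26. No run was found in the windows of Rpl6 and Rps4x. Rpl10a and Rpl19 each have 2 annotated starts, of which one with a run is shown.

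Such a run was present at 16 of the 33 tested ribosomal protein genes with an entry (48.5%), against 13.2% of 27025 genes with an entry. Among the ribosomal protein genes, 7 of the 15 called higher had it (46.7%), as had 9 of the 18 not called (50%). It was present at 3 of 32 complex I genes (9.38%) and 7 of 52 mitochondrial ribosomal protein genes (13.5%). The matches describe annotated starts and not starts mapped in eggs.

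Nuclear genes for the respiratory chain followed. Of 34 complex I genes, subunits or assembly factors, 14 were called higher (41.2%, against 5.89% of all genes) and 0 lower. Their median log2 change was 0.68. Ndufa9, an accessory subunit, had 244, 297 and 246 units in double-knockdown eggs, against 28.6, 22.9 and 24.6 units in Dcp2-knockdown eggs, a rise of at least 8.16-fold (adjusted p = 8.26e-05). Ndufa12 had 341, 392 and 274 units in double-knockdown eggs, against 46.4, 54.5 and 42.4 units in Dcp2-knockdown eggs (2.81 ± 0.26, adjusted p = 0.000104), and its 3 tested probe sets all rose. Ndufb10, of the membrane arm, rose at least 3.80-fold (adjusted p = 0.00022), with 116, 118 and 144 units with both siRNAs and 35.1, 25.8 and 24.6 units with Dcp2 siRNA alone. Ndufa8 had 219, 260.3 and 209.8 units in double-knockdown eggs, against 71.3, 56.8 and 71.3 units in Dcp2-knockdown eggs (1.79 ± 0.19, adjusted p = 0.000268). In these 4 genes Dcp2-knockdown eggs differed from control eggs by -0.43 to 0.31 and Dcp1a-knockdown eggs by -0.12 to 0.35 on the log2 scale, well under the rises. The 14 called changes ran between 1.19 and 4.04 and the 20 others between -0.54 and 2.49. Without replicate 2 of the double knockdown 9 were called. Among the 14 called genes, 3 had passed the filter only through the double-knockdown arrays. Ndufa9 and Ndufb10 were among these, so the filter favoured their rise. Without such genes 11 of 31 were called (35.5%), against 4.46% of all genes.

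Of 49 genes of complexes II to V 11 were called higher (22.4%, against 5.89% of all genes) and 0 lower, with a median of 0.42. Atp5g1, a gene for the rotor subunit of ATP synthase, had 103, 149.8 and 82.0 units in double-knockdown eggs, against 13.2, 13.2 and 12.7 units in Dcp2-knockdown eggs, at least 3.38-fold higher (adjusted p = 1.11e-05). Atp5g2, which encodes the same subunit, had 91.7, 109.8 and 81.3 units in double-knockdown eggs, against 39.6, 37.0 and 38.0 units in Dcp2-knockdown eggs (1.29 ± 0.16, adjusted p = 0.000865). Atp5o, a protein of the stalk of ATP synthase, rose on both tested probe sets, at least 2.83-fold on the brighter of them with 105, 81.0 and 87.1 units with both siRNAs and 8.3, 7.7 and 8.3 units with Dcp2 siRNA alone (adjusted p = 3.91e-05). Cox4i1, a subunit of cytochrome oxidase, had 658, 678 and 611 units in double-knockdown eggs, against 125, 96.0 and 82.1 units in Dcp2-knockdown eggs (2.70 ± 0.25, adjusted p = 9.32e-05). The called changes ran between 1.10 and 3.48. With the filter of 6 arrays above 32 in place of 3, the count was 6. Of the 11, 5 had passed the filter only through the double-knockdown arrays, Atp5g1 and Atp5o among them, so the filter favoured their rise. Without such genes 6 of 42 were called (14.3%), against 4.46% of all genes.

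Of 56 mitochondrial ribosomal protein genes 11 were called higher (19.6%, against 5.89% of all genes) and 0 lower, with a median of 0.27. Mrpl12 had 103, 132 and 104 units in double-knockdown eggs, against 9.2, 7.3 and 8.6 units in Dcp2-knockdown eggs, at least 3.51-fold higher (adjusted p = 1.68e-06). Its low spread outside the double knockdown is that of values at the floor. Mrpl22 had 306, 398 and 193 units in double-knockdown eggs, against 44.9, 23.8 and 26.4 units in Dcp2-knockdown eggs, at least 8-fold higher (adjusted p = 0.000205). Mrpl41 rose at least 6.57-fold (adjusted p = 0.000397) and Mrps7, of the small subunit, at least 1.71-fold (adjusted p = 0.000209). All 4 were at or under 32 units on at least 2 of the 3 Dcp2-knockdown arrays. Of the 11, 4 had passed the filter only through the double-knockdown arrays, among them Mrpl12, Mrpl41 and Mrps7, so the filter favoured their rise. Without such genes 7 of 50 were called (14%), against 4.46% of all genes. The count of 11 was 6 after median centring, 7 with the filter of 6 arrays above 32 and between 8 and 12 with 1 array left out.

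Of 20 genes for mitochondrial protein import 4 were called higher (20%, against 5.89% of all genes) and 0 lower, with a median of 0.42. Timm10b, of the chaperones between the membranes, had 212, 223 and 192 units in double-knockdown eggs, against 62.5, 74.9 and 76.7 units in Dcp2-knockdown eggs (1.55 ± 0.15, adjusted p = 0.000144), and all 3 of its tested probe sets rose. Timm17a, of the inner membrane channel, had 237, 189.9 and 278 units in double-knockdown eggs, against 42.1, 33.1 and 27.3 units in Dcp2-knockdown eggs (2.79 ± 0.35, adjusted p = 0.000737). Timm50, its receptor, rose at least 3.03-fold (adjusted p = 0.00659), and Tomm7 of the outer membrane changed by 1.15 ± 0.23 (adjusted p = 0.0109). Timm50 passed the filter only through the double-knockdown arrays, so the filter favoured its rise. Without such genes 3 of 19 import genes were called (15.8%), against 4.46% of all genes. Of 22 genes of pyruvate dehydrogenase and the citric acid cycle 4 were called higher (18.2%, against 5.89% of all genes) and 0 lower. Their median was 0.35, and the count was 2 with the filter of 6 arrays above 32. Beside Mdh2 the 4 were Sdhb, an iron-sulfur subunit of succinate dehydrogenase (at least 1.78-fold, adjusted p = 0.00305), Idh3g of isocitrate dehydrogenase (2.17 ± 0.36, adjusted p = 0.00406) and Aco1, the cytosolic aconitase (1.69 ± 0.44, adjusted p = 0.0437). Sdhb passed the filter only through the double-knockdown arrays, so the filter favoured its rise. Without such genes 3 of 19 were called (15.8%), against 4.46% of all genes. Aco1 missed the threshold in 10 of 12 fits that left out 1 array, with an adjusted p of 0.158 at most. It had 812.8 units on control replicate 3, within its double-knockdown range of 774.9 to 978.5 units. Of 8 glycolytic genes tested, Aldoa (1.22 ± 0.24, adjusted p = 0.00939) and Pkm (1.11 ± 0.26, adjusted p = 0.0266) rose, with a list median of 0.36. This was a share of 25%, against 5.89% of all genes. Pkm missed the threshold with 1 array left out, at 0.0959 at most. The count of 2 became 1 without replicate 3 of the Dcp2 knockdown or any one double-knockdown array, and 0 after median centring, with the 6 arrays alone and without the filter.

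Of 34 proteasome genes 7 were called higher (20.6%, against 5.89% of all genes) and 0 lower, with a median of 0.51. Psmb6, a catalytic subunit, had 1292, 1300.4 and 1191 units in double-knockdown eggs, against 659.5, 667 and 570.4 units in Dcp2-knockdown eggs (1.00 ± 0.19, adjusted p = 0.00926). Psmd12, of the regulatory cap, had 338, 424 and 470.2 units in double-knockdown eggs, against 116, 78.6 and 169 units in Dcp2-knockdown eggs (1.82 ± 0.36, adjusted p = 0.0114). Psmb4 changed by 1.75 ± 0.41 (adjusted p = 0.0254, 1 of its 2 tested probe sets) and Psmb7 by at least 2.56-fold (adjusted p = 0.0315). This count was not stable: it was between 2 and 4 without any one array of the double or the Dcp2 knockdown and without replicate 1 or 2 of the Dcp1a knockdown, and 1 gene was called lower without replicate 1 of the double knockdown. Psmb4 and Psmb7 lost their calls in such fits, at adjusted p of 0.099 and 0.118 at most. Psmb4 had 1286 units on control replicate 3, within its double-knockdown range of 856.5 to 1325.6 units. Psmb7 passed the filter only through the double-knockdown arrays and control replicate 3, so the filter favoured its rise. Without genes that passed only through the double-knockdown arrays 6 of 32 were called (18.8%), against 4.46% of all genes.

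Of 39 chaperone and unfolded protein response genes 6 were called higher (15.4%, against 5.89% of all genes) and 0 lower, with a median of 0.34. Tcp1 and Cct5, subunits of the chaperonin that folds actin and tubulin, changed by 1.6 ± 0.25 (adjusted p = 0.00283) and 1.89 ± 0.42 (adjusted p = 0.0207, 0.0833 at most with 1 array left out). Hspa8, the constitutive Hsp70, was bright and had 18203, 17846 and 12976 units in double-knockdown eggs, against 7418, 5162 and 6588 units in Dcp2-knockdown eggs (1.35 ± 0.26, adjusted p = 0.00926), with all 3 tested probe sets higher. Ddit3, which encodes the stress-induced factor CHOP, had 156, 115 and 225 units in double-knockdown eggs, against 60.8, 36.5 and 40.1 units in Dcp2-knockdown eggs (1.83 ± 0.29, adjusted p = 0.00284). The count was 3 without replicate 1 or 3 of the Dcp2 knockdown and without replicate 2 or 3 of the double knockdown, with medians between 0.12 and 0.55 over the arrays left out; it was also 3 after median centring and 2 without the filter.

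**Figure D4:**
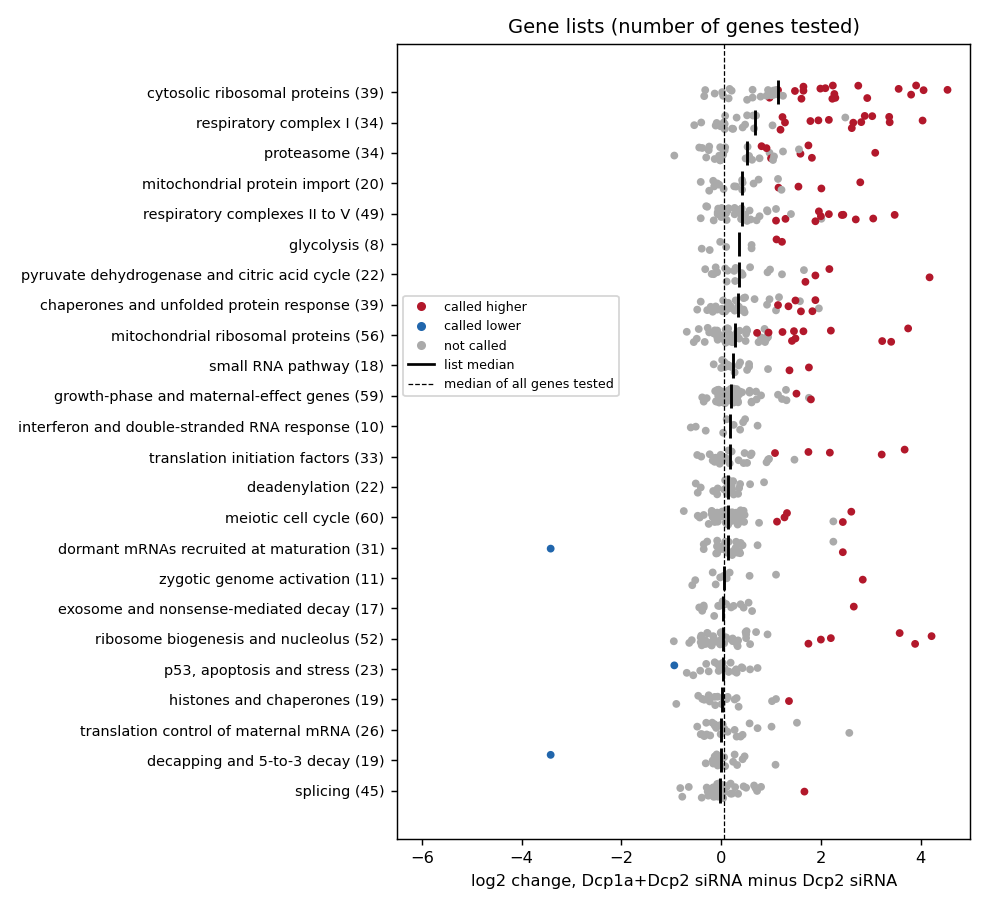
Log2 change (double-knockdown minus Dcp2-knockdown eggs) of every tested gene in the lists with at least 8 tested genes, 1 point per gene, with a black bar at each list's median and a dashed line at the median of all genes (0.06). The cytosolic ribosome has 19 called members and a median of 1.13, complex I has 14 and 0.68, and decapping and 5′-to-3′ decay has 0 called higher and -0.01. Of all genes tested, 5.89% were called higher.

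Of 33 translation initiation factors 5 were called higher (15.2%, against 5.89% of all genes) and 0 lower, with a median of 0.17. Eif3l had 78.2, 99.0 and 82.9 units in double-knockdown eggs, against 10.5, 7.7 and 9.8 units in Dcp2-knockdown eggs, at least 2.70-fold higher (adjusted p = 8.13e-06). Eif3l passed the filter only through the double-knockdown arrays, so the filter favoured its rise. Without such genes 4 of 32 were called (12.5%), against 4.46% of all genes. Eif4e2, a cap-binding protein that represses translation, had 527, 655 and 496 units in double-knockdown eggs, against 143, 129 and 247 units in Dcp2-knockdown eggs (1.75 ± 0.24, adjusted p = 0.00131). Eif2b4, of the exchange factor that recharges eIF2, had 285, 263 and 308 units in double-knockdown eggs, against 64.1, 58.3 and 66.6 units in Dcp2-knockdown eggs (2.18 ± 0.35, adjusted p = 0.0031), and Eif4h on its brightest probe set differed by 3.68 ± 0.86 (adjusted p = 0.0268). The count was 3 without replicate 2 or 3 of the Dcp2 knockdown or any one double-knockdown array and 7 without control replicate 1 or 2, with medians between 0.11 and 0.36. Of 52 genes of ribosome biogenesis and the nucleolus 6 were called higher and 0 lower, with a median of 0.03. Beside Fcf1, Emg1, a methyltransferase of ribosomal RNA, had 123, 165 and 141 units in double-knockdown eggs, against 10.2, 10.6 and 8.2 units in Dcp2-knockdown eggs, at least 4.44-fold higher (adjusted p = 8.13e-06). Nhp2, of the H/ACA particles that guide pseudouridylation, rose at least 2.67-fold (adjusted p = 0.000337), and Utp11, of the small-subunit processome, at least 1.80-fold (adjusted p = 0.000506). Emg1, Nhp2 and Utp11 passed the filter only through the double-knockdown arrays, so the filter favoured their rise. Without such genes 3 of 49 were called (6.12%), near the 4.46% of all genes.

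Among genes of decapping and 5′-to-3′ decay, Dcp1a was called lower and the other 18 of 19 tested genes were not called, with a list median of -0.01. Over all genes 5.89% were called higher and 0.272% lower, so few calls would be met in a list of this size. The paralogue Dcp1b had 35.8, 33.5 and 33.0 units in double-knockdown eggs, against 40.5, 33.5 and 38.3 units in Dcp2-knockdown eggs (-0.13, adjusted p = 0.856). Edc4, a scaffold of the decapping complex, had 7845, 9070.5 and 7274.5 units in double-knockdown eggs, against 7463, 7156 and 8172 units in Dcp2-knockdown eggs (0.08, adjusted p = 0.904). Xrn1 differed by 0.32 (adjusted p = 0.796) and the helicase Ddx6 by -0.31 (adjusted p = 0.666). Lsm6, a member of the ring that binds the 3′ end of mRNAs bound for decapping, had the smallest p of those not called, at 1.09 ± 0.57 (adjusted p = 0.423). Dcp1b, Edc4, Xrn1 and Ddx6 were picked after their values were seen.

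Of 22 deadenylation genes 0 were called in either direction, with a median of 0.13, where 5.89% of all genes were called higher and 0.272% lower. At these shares few calls would be met in a list of this size. The smallest p-values belonged to Noct, nocturnin, at 0.38 ± 0.19 (adjusted p = 0.383), and to Cnot2 of the CCR4-NOT complex at 0.34 ± 0.18 (adjusted p = 0.428). Of 17 exosome and nonsense-mediated decay genes 1 was called higher, Dis3l, a cytoplasmic exonuclease of the exosome, with 212, 181 and 272 units in double-knockdown eggs, against 23.0, 50.6 and 35.8 units in Dcp2-knockdown eggs (2.66 ± 0.36, adjusted p = 0.00122), a share of 5.88% beside the 5.89% of all genes. The core subunit Exosc4 differed by 0.62 ± 0.28 (adjusted p = 0.308). Of 26 genes that control the translation of maternal mRNA 0 were called, with a median of 0.00, beside the same shares over all genes. Ybx2, the germ-cell protein that coats stored mRNA, had 552, 477 and 530.5 units in double-knockdown eggs, against 167, 122 and 289 units in Dcp2-knockdown eggs and just missed the threshold (1.52 ± 0.41, adjusted p = 0.0534), as did Fxr2 (1.01 ± 0.27, adjusted p = 0.0536).

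Lists of maternal mRNA that define the egg held called rises at shares near the 5.89% of all genes. Of 59 growth-phase and maternal-effect genes 2 were called higher and 0 lower (3.39% higher), with a median of 0.20. Zp2, a protein of the zona pellucida, had 7547, 8336 and 6747 units in double-knockdown eggs, against 3431, 2085 and 1398 units in Dcp2-knockdown eggs (1.80 ± 0.42, adjusted p = 0.0261), and Zfp57, which maintains imprints, had 337, 522 and 493 units in double-knockdown eggs, against 247, 129.8 and 116 units in Dcp2-knockdown eggs (1.51 ± 0.36, adjusted p = 0.0268). Both lost their calls with 1 array left out, at adjusted p of 0.101 and 0.109 at most. The count was 0 without replicate 2 or 3 of either the Dcp2 or the double knockdown, 1 without replicate 1 of the double knockdown, and 6 and 5 without control replicates 2 and 3. Of 31 dormant mRNAs recruited at maturation Dcp1a was called lower and Cdk1 higher, with a median of 0.13. Cdk1, the kinase of M-phase, had 45.3, 28.2 and 96.1 units with both siRNAs and 9.9, 9.8 and 8.0 units with Dcp2 siRNA alone, a rise of at least 1.55-fold (adjusted p = 0.0226, 0.0849 at most with 1 array left out), and lost its call without any one Dcp2-knockdown array and without replicate 1 or 3 of the double knockdown. Cdk1 passed the filter only through the double-knockdown arrays and control replicate 3. Of 60 meiotic cell cycle genes 5 were called higher and 0 lower (8.33%), with a median of 0.13. Anapc2 (1.32 ± 0.18, adjusted p = 0.00113) and Anapc7 (2.61 ± 0.50, adjusted p = 0.00897, 1 of 2 tested probe sets) encode subunits of the anaphase-promoting complex, and Ube2c (1.12 ± 0.25, adjusted p = 0.0209, 0.0839 at most) the enzyme that hands it ubiquitin. The count was 2 without replicate 1 or 3 of the Dcp2 knockdown or replicate 1 of the double knockdown, 3 without replicate 2 of the Dcp2 knockdown or replicate 2 or 3 of the double knockdown, and 6 at most, with medians between 0.01 and 0.24.

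The remaining lists are given beside the same 5.89% of all genes called higher and 0.272% called lower. Of 45 splicing genes Prpf3 was called higher (1.67 ± 0.36, adjusted p = 0.0179, 0.0672 at most with 1 array left out), a share of 2.22%, with a median of -0.02. Prpf3 passed the filter only through the double-knockdown arrays and control replicate 3, and without such genes 0 of 44 were called. Prpf38a differed by 0.66 ± 0.23 (adjusted p = 0.153). Of 19 histones and histone chaperones H2ax was called higher (1.36 ± 0.32, adjusted p = 0.0286, 0.122 at most; 5.26%), with a median of 0.01, and H2az2 differed by 1.02 ± 0.28 (adjusted p = 0.0625). Of 18 small RNA genes Gtsf1, a partner of Piwi proteins (1.76 ± 0.43, adjusted p = 0.0327, 0.13 at most), and Drosha, which cuts microRNA precursors (1.37 ± 0.34, adjusted p = 0.0377, 0.133 at most), were called higher (11.1%), with a median of 0.24; 0 were called without any one Dcp1a-knockdown array, replicate 2 of the Dcp2 knockdown or replicate 1 or 2 of the double knockdown. Of 10 genes of the interferon and double-stranded RNA response 0 were called, with a median of 0.18. Eif2ak2, the kinase activated by double-stranded RNA, had 58.6, 67.6 and 45.9 units in double-knockdown eggs, against 68.7, 66.9 and 115 units in Dcp2-knockdown eggs (-0.51 ± 0.24, adjusted p = 0.327), and Irf3 differed by 0.38 ± 0.18 (adjusted p = 0.345). Of 23 genes of p53, apoptosis and stress Cat, the catalase, was called lower (-0.94 ± 0.20, adjusted p = 0.0182, 0.0878 at most), with a median of 0.03, and Casp9 differed by -0.69 ± 0.27 (adjusted p = 0.214). Of 11 genes of zygotic genome activation Arg2, a mitochondrial arginase, was called higher, with 473, 397 and 566 units in double-knockdown eggs, against 109, 40.8 and 65.3 units in Dcp2-knockdown eggs (2.84 ± 0.52, adjusted p = 0.00676) and a list median of 0.05 (9.09% called). Of the cumulus and granulosa markers 3 passed the filter and 0 were called; Nr5a2 differed by -0.58 ± 0.20 (adjusted p = 0.151) and Kitl by -0.05 ± 0.33 (adjusted p = 0.979). The 1 other ovarian marker tested, Kdr, differed by -0.14 ± 0.16 (adjusted p = 0.809).

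Where Dcp2 was intact, Dcp1a siRNA gave few calls. Without Dcp2 siRNA, 6 of 11593 probe sets were called between Dcp1a-knockdown and control eggs (0.0518%), 2 higher and 4 lower, with 345 higher and 225 lower at an unadjusted p under 0.05. Of the 6, 2 read Dcp1a. Uba6, a ubiquitin-activating enzyme, was called higher with Dcp1a siRNA in both settings. It had 36.4, 10.1 and 44.9 units in double-knockdown eggs, against 6.6, 4.9 and 4.9 units in Dcp2-knockdown eggs (adjusted p = 0.0115, with both groups dim). It had 70.2, 55.9 and 46.7 units in Dcp1a-knockdown eggs, against 4.9 units on each control array (adjusted p = 0.0291). Under the alternatives run, its log2 rise over Dcp2-knockdown eggs was as low as 0.22, with an adjusted p of 0.693 at most. That call was also lost without replicate 1 of the double knockdown (adjusted p = 0.0601). Snx6, a sorting nexin, was called in opposite directions, with 262, 303 and 302 units in double-knockdown eggs, against 112, 160.0 and 77.0 units in Dcp2-knockdown eggs (1.37 ± 0.31, adjusted p = 0.0231), and with 60.5, 40.7 and 30.4 units in Dcp1a-knockdown eggs, against 146, 216 and 227 units in control eggs (-2.19 ± 0.31, adjusted p = 0.0445). Of 2 tested Snx6 probe sets 1 was called with both siRNAs, and it lost that call without replicate 1 or 3 of the Dcp2 knockdown and without any one double-knockdown array (adjusted p = 0.0854 at most). Pdk1, which inactivates pyruvate dehydrogenase, was lower with Dcp1a siRNA alone, with 1554, 1522 and 949.6 units in Dcp1a-knockdown eggs, against 4303, 4047 and 4435 units in control eggs (-1.70 ± 0.21, adjusted p = 0.0291), and was not called where Dcp2 siRNA was given too, with 3057, 2805 and 3591 units in double-knockdown eggs, against 3433, 3195 and 2658 units in Dcp2-knockdown eggs (0.03 ± 0.21, adjusted p = 0.983). Uba6, Snx6 and Pdk1 were picked after their values were seen.

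The difference between both effects of Dcp1a siRNA, (double minus Dcp2 knockdown) minus (Dcp1a knockdown minus control), was tested in the same fit. It passed in 456 probe sets (3.93%), 452 of them with the higher change where Dcp2 siRNA was given (3.9%) and 4 the other way (0.0345%), with 1137 and 205 at an unadjusted p under 0.05. The comparison shares its double-knockdown and Dcp2-knockdown arrays with the one above. By the rule for named genes, the smallest p-values belonged to Mrpl12 (3.74 ± 0.25, adjusted p = 6.82e-05), Atp5o on its dimmer probe set (2.98 ± 0.20, adjusted p = 6.82e-05) and Cops6, a subunit of the COP9 signalosome (3.75 ± 0.27, adjusted p = 6.82e-05). Cops6 had 48.7, 65.3 and 63.6 units in double-knockdown eggs, against 5.0, 4.9 and 5.0 units in Dcp2-knockdown eggs, and 5.0, 4.9 and 5.0 units in Dcp1a-knockdown eggs and 5.0, 5.0 and 7.3 units in control eggs. All 3 were under 10 units on every array outside the double knockdown, so they were tested only because the double-knockdown arrays were high, and their sizes and p-values are set by values at the floor. With values under 32 set to 32 the differences were 1.81, 0.34 and 0.88, and the rise of Atp5o over Dcp2-knockdown eggs was at least 1.27-fold and that of Cops6 at least 1.83-fold. In the other direction Syne1, a protein that ties the nucleus to the cytoskeleton, had 20.1, 20.2 and 20.8 units with both siRNAs and 20.2, 20.2 and 23.6 units with Dcp2 siRNA alone, with 40.3, 52.4 and 61.0 units in Dcp1a-knockdown eggs and 19.3, 20.7 and 20.8 units in control eggs (-1.38 ± 0.25, adjusted p = 0.0115). Hira, a chaperone of histone H3.3, had 63.6, 60.5 and 56.5 units with both siRNAs and 72.0, 90.4 and 86.4 units with Dcp2 siRNA alone, with 107, 107 and 102 units in Dcp1a-knockdown eggs and 75.4, 76.6 and 78.4 units in control eggs (-0.91 ± 0.21, adjusted p = 0.0351), and Stk36 differed by -1.29 ± 0.28 (adjusted p = 0.0279). With values under 32 set to 32, the difference for Syne1 was -0.66. Of the single effects, that with Dcp2 siRNA was called for Stk36 and that without it for Syne1 (1.32, adjusted p = 0.0319). Neither was called for Hira, at -0.46 ± 0.15 with Dcp2 siRNA (adjusted p = 0.12) and 0.46 without it (adjusted p = 0.853).

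Among list members the difference passed in 13 of 39 cytosolic ribosomal protein genes, 12 of 34 complex I genes, 10 of 56 mitochondrial ribosomal protein genes and 8 of 49 genes of complexes II to V. It was always the higher change where Dcp2 siRNA was given, against 260 of 6998 genes that way (3.72%). Of the tested genes of these lists 4, 3, 6 and 7 passed the filter only through the double-knockdown arrays, as did 201 of all 6998. The filter favoured a higher change in them. Ndufa9, Ndufb10, Mrpl12, Mrpl41, Mrps7, Atp5g1, Atp5o and Sdhb are such genes among those counted here. The difference was not counted without them. The median log2 change of Dcp1a siRNA alone was -0.20, -0.15, -0.06 and 0.00 in these lists, against 0.10 over all genes. The count of 456 was between 252 and 280 without any one array of the Dcp1a knockdown and without replicate 1 or 2 of the double knockdown. It was 408 without control replicate 3, and 334 without replicate 2 of the Dcp2 knockdown. The 4 calls the other way became 80 without control replicate 1, and were 1 or 2 without control replicate 2, any Dcp1a-knockdown array or replicate 1 or 2 of the double knockdown.

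**Figure D5:**
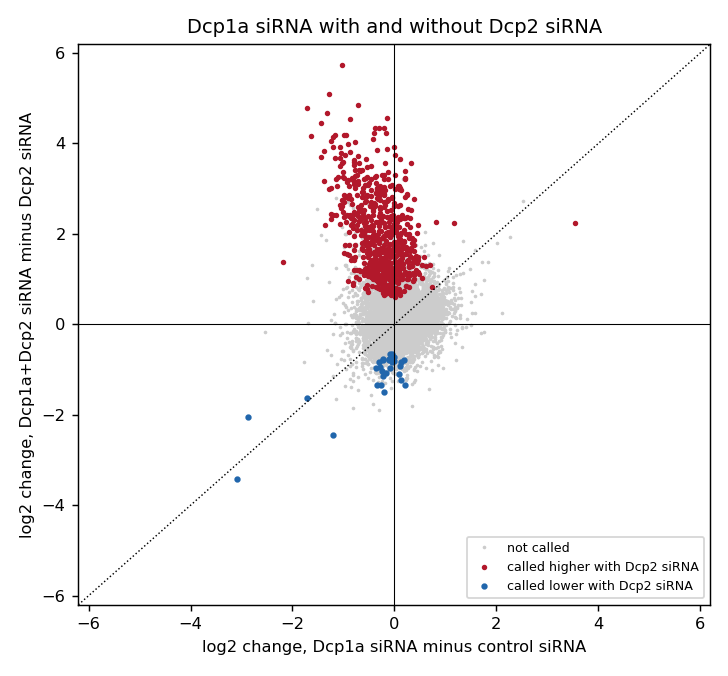
Log2 change by Dcp1a siRNA with Dcp2 siRNA (double-knockdown minus Dcp2-knockdown eggs, vertical axis) against that without it (Dcp1a-knockdown minus control eggs, horizontal axis) for the 11593 probe sets, with a dotted line of equal change. The called rises (red) stand near 0 on the horizontal axis, with a median of -0.23, and the 2 called Dcp1a probe sets lie near the line at the lower left.

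Over the 710 rises the median log2 change by Dcp1a siRNA alone was -0.23, against 0.09 for all probe sets, and 26.9% were above 0, against 62.1% of all. The offset moved with the control arrays left out, alternatives added after seeing the data. Without control replicate 3 it was smaller, with a median of 0.00 and 50% above 0, against 0.10 and 62.7% for all probe sets. Without control replicate 2 the median was -0.37 and 15.2% were above 0, against 0.06 and 59.7%, and without replicate 1 the median was -0.29 and 27% were above 0, against 0.10 and 59.3%. Across the 11593 probe sets both effects of Dcp1a siRNA, which share no array, correlated at r = -0.135 with all arrays, at -0.134, -0.378 and 0.136 without control replicates 1, 2 and 3. Probe sets are not independent replicates, and the sign of this relation turned with 1 control array.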

How the data were processed

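RNA of 30 pooled eggs per sample was amplified, biotin-labelled and hybridised to Affymetrix mouse arrays, 12 in all, 3 in each of 4 groups. The deposited values are linear intensities, background-corrected and normalized with GCRMA, per the submitters' processing notes; which version was not given in the sources used here. Their lowest value is 4.9, and no depth or detection call comes with them. The number of arrays limits the precision.

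Intensities were log2-transformed. The 64 control probe sets were left out, and 11593 of 45037 others with log2 above 5 in at least 3 arrays were tested with limma 3.58.1 in R 4.3.3: lmFit on the 4 group means over all 12 arrays, then eBayes without trend. P-values were adjusted by Benjamini-Hochberg over the 11593, with a threshold of 0.05, and every adjusted p in the text comes from this fit. The contrasts were double minus Dcp2 knockdown, Dcp1a knockdown minus control, and their difference. Errors written ± are the fit's standard errors (n = 3 arrays a group). Where a group lay at or under 32 units (log2 5), a fold is given as at least the brighter mean over the higher of 32 and the dim arrays' own values.

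Symbols came from the platform annotation: 10699 tested probe sets had 1 symbol, 334 several and 560 none, and only those with 1 were named. Lists describe each gene by its probe set with the highest mean over 12 arrays. Named genes were the 15 largest rises and 12 largest falls without overlap between the groups, ranked after values under 32 were set to 32; up to 4 called members of each list by smallest p, or the 2 smallest p-values where fewer than 2 passed; and 3 differences of effects in each direction. Dcp1b, Edc4, Xrn1, Ddx6, Uba6, Snx6 and Pdk1 were named outside this rule. The members, the 26 lists and these rules were chosen with earlier results of these data known. The statistics were tested on simulated data with the fitted spread of each probe set. Of 100 changes of 2-fold 18 were called and of 100 changes of 4-fold 91, with 3 false calls. Most changes of 2-fold were thus missed, so a gene that was not called may still have changed by that much. Alternatives covered the normalization, the filter on dim probe sets, eBayes settings, array weights (estimated gene by gene, since the REML fit did not converge), a replicate block and leaving out each array. Samples with the same replicate number did not deviate together (r of deviations from the group means 0.114, -0.685 and -0.674), so the samples were not treated as paired. For unlike numbers this r lay between -0.327 and 0.722. It was 0.722 for double-knockdown replicate 3 with Dcp2-knockdown replicate 2, and 0.654 for double-knockdown replicate 2 with Dcp2-knockdown replicate 3. Arrays of both groups thus shared deviations, and a common factor or batch was not tested. No pair of the 66 array pairs held identical values.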

Additional observations from a re-analysis of the deposited data

Results flagged for a closer look

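The effect of Dcp1a siRNA differed with and without Dcp2 siRNA, by the test of the difference itself, in 456 probe sets, and in 53 of the probe sets named above. All values below are log2 differences of effects, (double minus Dcp2 knockdown) minus (Dcp1a knockdown minus control). Positive values mean a higher change where Dcp2 siRNA was given, which can also come from a fall without it.

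In the cytosolic ribosome the difference was 5.41 for Rps4x, 5.31 for Rpl10a, 4.98 for Rpl7, 4.68 for Rpl19, 3.25 for Rpl6, 2.98 for Rps20 and 2.63 for Rps26. In ribosome assembly it was 4.38 for Fcf1, 4.27 for Nhp2, 4.03 for Emg1 and 1.72 for Utp11. In mitochondrial ribosomes it was 4.04 for Mrpl41, 3.74 for Mrpl12, 3.03 for Mrpl22 and 1.96 for Mrps7. In complex I it was 4.07 for Ndufs7, 3.49 for Ndufa9, 2.85 for Ndufa12, 2.13 for Ndufb10 and 1.44 for Ndufa8. In ATP synthase and cytochrome oxidase it was 4.02 and 2.98 for the 2 probe sets of Atp5o, 3.16 for Cox4i1, 2.99 for Atp5g1 and 1.14 for Atp5g2. Among metabolic and import genes it was 5.18 for Mdh2, 2.27 for Idh3g, 2.19 for Sdhb, 1.44 for Aldoa, 3.81 for Arg2, 3.13 for Timm17a and 1.46 for Timm10b.

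In translation factors and exosome it was 3.43 for Eif3l, 2.76 for Eif2b4, 1.96 for Eif4e2 and 3.11 for Dis3l. In protein folding and turnover it was 3.75 for Cops6, 2.63 for Psmb4, 2.16 for Ddit3, 1.64 for Tcp1 and 1.56 for Hspa8. In the cell cycle and small RNA lists it was 3.23 for Cdk1, 1.28 for Anapc2 and 2.54 for Gtsf1. Of the other large rises, Ppil3 had 6.76, Atp6v1d 5.81, Supt20 5.12 and Lrrfip2 4.71. The negative differences were -1.38 for Syne1, -1.29 for Stk36 and -0.91 for Hira. Of the genes called where Dcp1a siRNA was given alone, Snx6 had 3.56 and Pdk1 1.73. Both were lower with Dcp1a siRNA alone, at -2.19 and -1.70, and changed by 1.37 and 0.03 where Dcp2 siRNA was given. Without control replicate 3, which was high for most of the rises, 408 differences were called, and the part of that array in each single value was not tested.

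Of the 53, 17 exceeded 32 units on at most 2 arrays outside the double knockdown: 10 on none, 3 on 1 and 4 on 2. They were tested only because the double-knockdown arrays were high, and the sizes above are set by values at the floor. With values under 32 set to 32, the difference was 1.81 for Mrpl12, 0.34 and 1.5 for the 2 probe sets of Atp5o, 0.88 for Cops6, 0.77 for Mrps7, 1.76 for Atp5g1, 1.43 for Eif3l, 0.83 for Sdhb, 1.42 for Nhp2 and 0.85 for Utp11, which exceeded 32 on no other array. It was 3.82 for Ppil3, 0.84 for Cdk1 and 2.17 for Emg1, where the other array was control replicate 3, and 4.39 for Rpl7, 3.04 for Mrpl41, 3.28 for Ndufa9 and 1.95 for Ndufb10. Syne1, above 32 on the Dcp1a-knockdown arrays alone, had -0.66 on this scale.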

How the results depend on the processing

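The 710 rises were above 0 under each alternative in which their probe sets were tested. In 709 of them the groups did not overlap, so leaving out or weighting arrays could not turn the sign. The filters and eBayes settings did not change the estimate. The normalizations could have turned the sign, and under them the median change of the 710 was 1.55 to 1.6, against 1.76 as deposited. The counts moved more. Rises numbered 472 with the filter of 6 arrays above 32 and 465 of 489 calls without a filter. Falls numbered 51 under median centring, 78 under quantile normalization and 13 with the 6 arrays alone. Array weights gave 2564 calls, 1902 higher and 662 lower. The difference of effects was called in 259 (257 higher, 2 lower) with the filter of 6 arrays, in 160 (155 higher) without a filter, in 988 (877 higher, 111 lower) with array weights, and in 292 (289 higher) without probe sets ending in _s_at or _x_at, an alternative chosen after seeing the data. Its lower calls numbered 11 under quantile normalization, 8 under cyclic loess, and 2 both with a filter of log2 above 6 and with a robust trend. With the replicate number as a block, 615 probe sets were called, 594 higher and 21 lower, and the difference had 1 lower call; same-numbered samples did not deviate together. The numbers of tests, genes or arrays differ by construction in the filter and 6-array settings, and the cause of the other moves was not tested.

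With each array left out in turn, calls ranged between 471 and 863, rises between 458 and 823 and falls between 13 and 40; the falls were 13 to 19 without any array of the Dcp1a or double knockdown or without replicate 2 of the Dcp2 knockdown. The difference ranged between 252 and 626, with 251 to 546 higher and 1 to 80 lower. Dcp1a itself ranged between -3.79 and -3.17 (adjusted p 0.00485 at most) and Dcp2 between -0.02 and 0.00. Of 84 named called probe sets 55 kept the call with every array left out. Apart from Dcp1a's brightest probe set, 40 of 83 kept it under every alternative run. The dimmest Dcp1a probe set was called in the deposited values and gave -0.03 (adjusted p = 0.968) once values under 32 were set to 32. Among uncalled genes, Kitl ranged between -0.25 and 0.21 with 1 array left out (0.21 without replicate 2 of the Dcp2 knockdown, 0.12 without replicate 1 of the double knockdown) and Syne1 between -0.10 and 0.01 (0.01 without replicate 3 of the Dcp2 knockdown). Pdk1, at 0.03, turned to -0.18 under median centring, -0.05 under quantile normalization, -0.02 under cyclic loess and -0.12 with array weights, and lay between -0.08 and 0.11 with 1 array left out. Edc4, at 0.08, turned to -0.13 under median centring and lay between -0.01 and 0.15 with 1 array left out.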
